A study of Homo sapiens with 24 samples.

Results

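Transcript levels of 40 genes of mitosis and the spindle were followed in BT549 cells, a human triple negative breast cancer line, by RNA sequencing. The members were listed by gene symbol, with earlier results of these data known, and the 3 deposited tables together hold 18154 symbols. All 40 were listed in the knockdown and inhibitor tables and 39 in the MB-3 table, where NUSAP1 had no row. The 24 libraries form 8 groups of 3 of unmodified BT549 cells, and each treatment is compared with the control of its own experiment. The knockdown experiment compares a SMARTpool siRNA directed at MYC, left on for 72 h (siMYC), with cells labelled siCtl, whose time is not given. The inhibitor experiment has 4 groups, namely KJ-PYR-9 (40 µM, 3 h), a compound that blocks the pairing of MYC with MAX, the same compound together with a treatment labelled DEX (KJ-PYR-9+DEX), DEX alone, and vehicle (VEH). The dose and time of DEX are not given. The MB-3 experiment sets 3 h of MB-3 at 100 µM (MB3), which inhibits the histone acetyltransferase GCN5, against a further vehicle (VEH2). Every group is the same single cell line. The titles number the libraries as biological replicates and do not say how the cultures were kept apart, so each p-value measures the spread between these libraries.

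Mitosis divides copied chromosomes between daughter cells. Cyclin B and CDK1 drive entry, motor and scaffold proteins build the spindle, kinetochores tie chromosomes to it, the checkpoint holds back anaphase, and the anaphase promoting complex ends the process by destroying cyclin B and securin. Most of these genes are transcribed together late in the cell cycle. In other human cells their promoters are known to be read by the MuvB complexes with B-Myb and FOXM1, through a CHR element, and by NF-Y, through CCAAT boxes. They are known markers of proliferation in breast tumours.

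The members differ widely in transcript length, from 914 nt in UBE2C to 12678 nt in MKI67, taking the longest protein-coding transcript of each gene in GENCODE release 29. The 20 members at or above the median of 3388.5 nt are called long here and the other 20 short. Their GC content ran from 34.2% in KIF20B to 59.6% in INCENP. Length and base composition were not independent, since 14 of the 20 long members lay among the 20 GC-poor members, below 42.6% GC, and 14 of the 20 short members among the 20 GC-rich ones. The GC classes were set after values had been seen.

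RefSeq promoter windows, from 250 bases before to 50 after the start, matched 35 members on GRCh38.p14, and AURKA, TTK, BIRC5, UBE2C and TPX2 had no entry. The windows were searched on both strands for the CHR letters TTTGAA, the variant TTCGAA and CCAAT. A CHR match of either spelling stood in 27 of 35 windows (77.1%), against 16.6% of 27305 windows of all genes. CCAAT stood in 26 of 35 (74.3%), against 35.7% of all windows. Both stood in 21 of 35 (60.0%), against 6.6%. A CHR and a CCAAT match shared bases in 1 member, MKI67. Of the members that held both, 19 were called in at least 1 comparison below, and the windows of the 3 with the shortest and the 3 with the longest transcripts are printed, because the contrast of short and long members runs through all results. Capitals mark the CHR and CCAAT letters, read on either strand, so that TTCAAA and ATTGG are the same letters on the other strand. The sequences are written in the direction of the gene.
CENPA, which encodes the centromeric histone, lies on the plus strand at chr2:26785806-26786105, with 1 CHR and 2 CCAAT matches.
CENPA: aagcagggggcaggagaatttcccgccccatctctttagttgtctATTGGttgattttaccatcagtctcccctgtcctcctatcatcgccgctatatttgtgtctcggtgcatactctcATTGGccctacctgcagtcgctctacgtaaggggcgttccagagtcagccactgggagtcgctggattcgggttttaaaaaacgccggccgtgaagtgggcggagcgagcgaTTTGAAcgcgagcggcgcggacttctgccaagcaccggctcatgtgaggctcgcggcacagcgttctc
CDC20, the activator of the anaphase promoting complex, lies on the plus strand at chr1:43358731-43359030, with 2 CHR and 2 CCAAT matches.
CDC20: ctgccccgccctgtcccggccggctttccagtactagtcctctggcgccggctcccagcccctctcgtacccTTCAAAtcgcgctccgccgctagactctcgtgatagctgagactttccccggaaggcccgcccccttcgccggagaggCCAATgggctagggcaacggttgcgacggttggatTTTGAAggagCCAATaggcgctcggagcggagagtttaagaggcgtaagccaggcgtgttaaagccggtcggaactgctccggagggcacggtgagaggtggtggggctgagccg
CDK1, the kinase that drives mitotic entry, lies on the plus strand at chr10:60778081-60778380, with 1 CHR and 1 CCAAT match.
CDK1: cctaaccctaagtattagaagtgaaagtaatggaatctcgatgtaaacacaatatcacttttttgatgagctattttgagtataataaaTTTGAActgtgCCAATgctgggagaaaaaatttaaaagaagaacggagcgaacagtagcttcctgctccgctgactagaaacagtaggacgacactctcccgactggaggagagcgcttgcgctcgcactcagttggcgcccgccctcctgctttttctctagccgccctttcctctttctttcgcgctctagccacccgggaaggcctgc
CENPF, a large kinetochore protein, lies on the plus strand at chr1:214602945-214603244, with 1 CHR and 4 CCAAT matches.
CENPF: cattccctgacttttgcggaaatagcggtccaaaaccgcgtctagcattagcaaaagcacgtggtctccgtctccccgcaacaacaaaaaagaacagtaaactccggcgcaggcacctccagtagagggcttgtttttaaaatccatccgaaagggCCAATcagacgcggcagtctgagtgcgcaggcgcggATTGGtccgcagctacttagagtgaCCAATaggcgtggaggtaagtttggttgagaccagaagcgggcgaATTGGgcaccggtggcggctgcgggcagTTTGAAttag
ASPM, a spindle pole protein, lies on the minus strand at chr1:197146620-197146919, with 1 CHR and 4 CCAAT matches.
ASPM: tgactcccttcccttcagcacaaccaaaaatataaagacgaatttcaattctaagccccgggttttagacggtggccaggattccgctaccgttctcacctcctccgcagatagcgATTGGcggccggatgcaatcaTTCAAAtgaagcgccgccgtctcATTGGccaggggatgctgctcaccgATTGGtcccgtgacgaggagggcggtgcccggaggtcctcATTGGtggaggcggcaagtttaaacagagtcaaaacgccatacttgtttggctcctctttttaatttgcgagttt
MKI67, the proliferation marker, lies on the minus strand at chr10:128126374-128126673, with 2 CHR and 2 CCAAT matches.
MKI67: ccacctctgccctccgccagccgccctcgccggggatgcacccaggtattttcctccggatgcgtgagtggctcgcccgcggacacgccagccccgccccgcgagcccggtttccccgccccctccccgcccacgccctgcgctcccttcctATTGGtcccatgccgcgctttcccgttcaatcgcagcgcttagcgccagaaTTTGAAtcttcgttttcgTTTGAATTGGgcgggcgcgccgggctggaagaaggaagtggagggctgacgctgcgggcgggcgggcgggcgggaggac
Short and long windows alike hold both motifs here because only members with both were eligible.

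The libraries held 5.58 M to 30.8 M recovered reads, fewest in DEX 1, where 26.04% of the reads lay on features without a symbol, against 1.62% to 8.72% in the other inhibitor libraries. All 8 listed markers of a mesenchymal, basal-like breast line had reads in every table, with VIM (vimentin) at 21251 to 29321 normalized counts in the knockdown, 9614 to 15519 in the inhibitor and 15050 to 17718 in the MB-3 table. Markers of other cell types were present in part. The luminal genes ERBB2 (559 to 2100) and GATA3 (164 to 776) and the leukocyte gene CORO1A (61.01 to 277) had reads in every library of all tables, and the epithelial genes CDH1 (33.6 to 522), KRT8 (6.10 to 118) and KRT18 (0.911 to 61.2) in every knockdown and inhibitor library. The luminal gene ESR1, the epithelial gene EPCAM, the endothelial genes PECAM1 and CDH5 and the leukocyte genes CD3E and ITGAM had no row. In the siCtl libraries, levels per kb of transcript ran from 2777 ± 490 for CCNB1 and 2590 ± 440 for CDC20 down to 88.7 ± 12.4 for PRC1 and 26.01 ± 6.24 for NUSAP1 (normalized count per kb, mean ± SD, n = 3). CCNB1 (cyclin B1), CDC20, UBE2C (2457 ± 225) and TPX2 (2347 ± 280) each lay within its own SD of the next level in that order. NUSAP1 shares 62.2% and PRC1 57.6% of exon bases with another gene on the same strand in GENCODE, so their counts are uncertain, and in the inhibitor libraries NUSAP1 read 5.8 to 13.8 and fell below the minimum level for testing. SMC4 and NCAPG share 25.6% and 33.1% of their exon bases with genes on the other strand, and whether the counting used strand is not given.

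The first comparison asked how these genes stood after 72 h of MYC knockdown. All 40 members averaged lower in siMYC than in siCtl, and 7 fell, all by 1.7-fold or more, while none rose. The long members were lowest: ASPM, CENPE, KIF11 and MKI67 averaged 2.1 to 3.2 times lower. The 7 called members are 17.5% of 40, beside 4.78% of 14788 genes tested that fell and 11.4% that rose (limma on log2 of the value plus 1, Benjamini-Hochberg adjusted p under 0.05). The median change was -0.49 over the members and 0.05 over all genes (log2). Of all genes called 70.4% were higher in siMYC, 59.3% when libraries were scaled by edgeR's trimmed mean (TMM) and 55.7% with quantile scaling, and all 40 members stayed below 0 with both. In 19 of 40 members every siMYC library was below every siCtl library, beside 17.1% of all genes, and in none was every library above, beside 26.6%. In RNA from whole cultures, fewer dividing cells and less RNA per dividing cell cannot be told apart. The siRNA target MYC read 1655, 1789 and 1710 in siMYC and 2313, 2269 and 2138 in siCtl. These groups did not overlap, as for the 17.1% of all genes that lay below, but MYC did not pass the test.

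**Figure D1:**
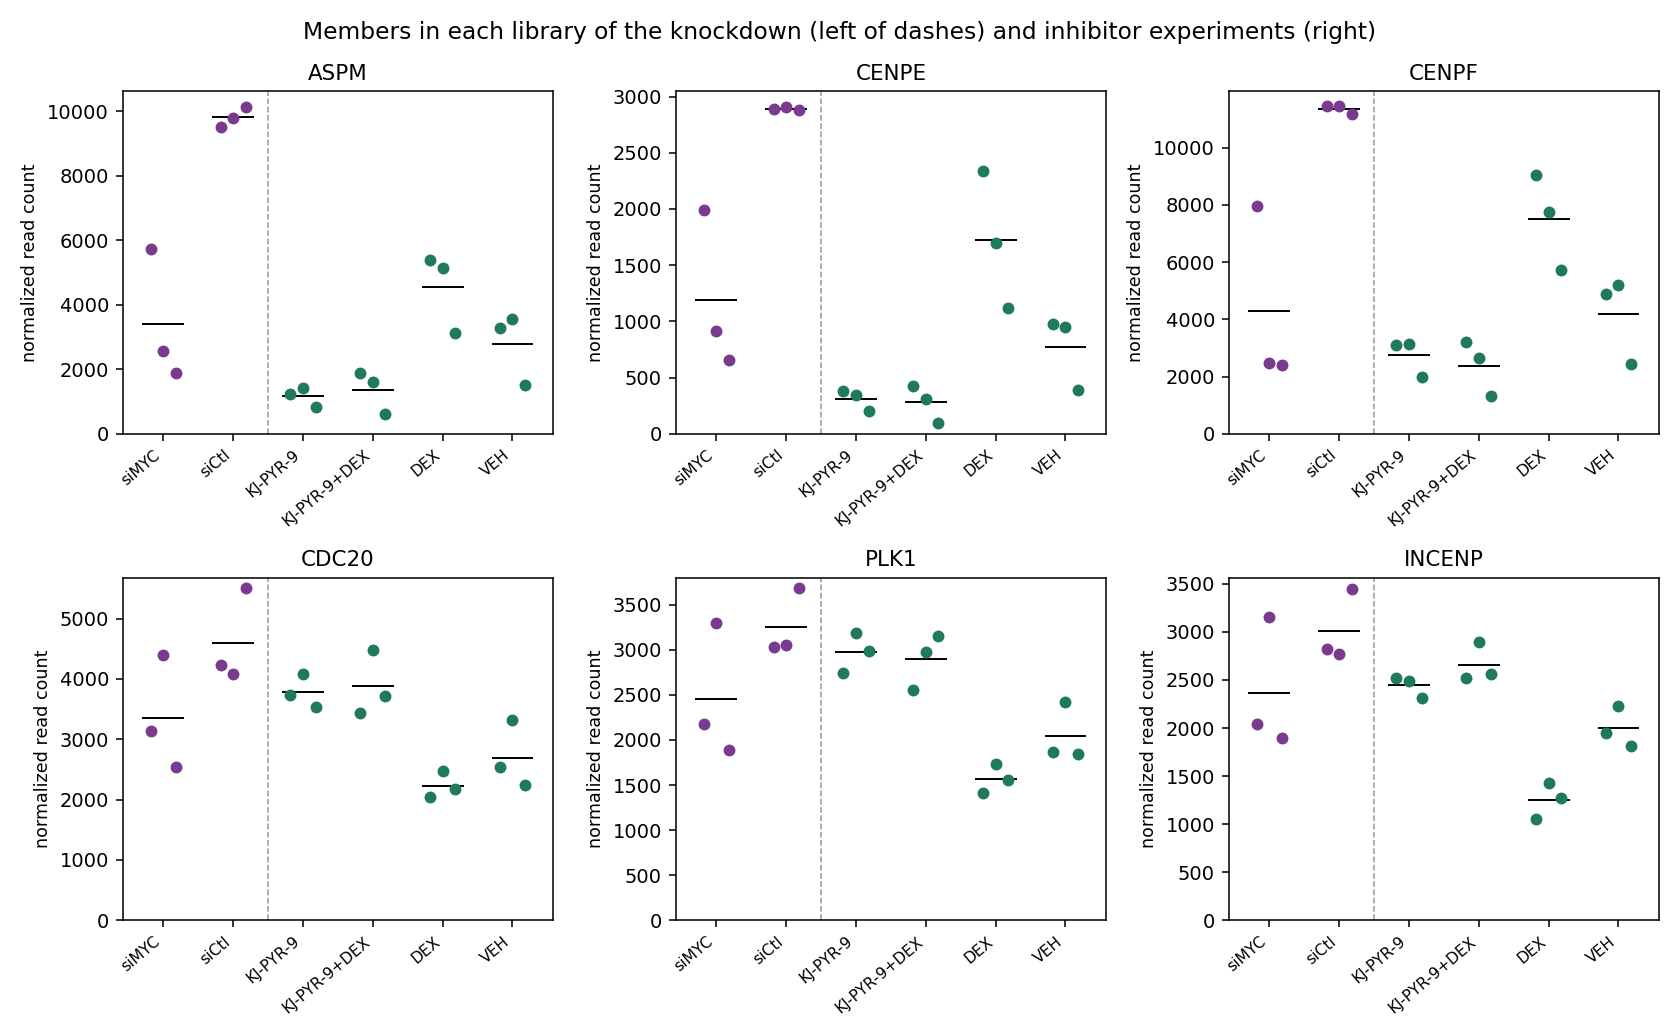
Normalized read counts of 6 members in every library of the knockdown and inhibitor experiments, from left to right replicates 1 to 3 within a group, with the group mean as a line and a linear axis from 0. ASPM, CENPE and CENPF were below siCtl in all 3 siMYC libraries, and CDC20, PLK1 and INCENP were higher in KJ-PYR-9+DEX than in DEX in all libraries.

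Among spindle assembly factors, ASPM, which focuses spindle poles, read 5740, 2562 and 1894 in siMYC and 9513, 9796 and 10144 in siCtl. The groups did not overlap, and siMYC 1 stood well above the other siMYC libraries. The log2 change was -1.69 (SE 0.38, limma adjusted p = 0.033). HMMR, a microtubule-binding spindle protein (-0.98), DLGAP5, which stabilises spindle fibres (-0.92), TPX2, the activator of Aurora A (-0.32), and NUSAP1 (-0.37) did not pass. Among kinetochore genes, CENPE, the motor that carries chromosomes to the spindle equator (GRCh38 chromosome 4, 103105811 to 103198343), read 1991, 917 and 655 in siMYC and 2891, 2905 and 2885 in siCtl. The siCtl libraries were almost level while the siMYC libraries were spread (log2 change -1.45, SE 0.38, limma adjusted p = 0.0475). NUF2, a subunit of the microtubule-binding NDC80 complex, read 890, 747 and 461 in siMYC and 1285, 1298 and 1627 in siCtl (-1.05, SE 0.26, limma adjusted p = 0.0396). It was the only short member called. CENPF read 7969, 2479 and 2409 in siMYC and 11458, 11443 and 11174 in siCtl. All siMYC values lay below, but 2 were far lower than the third, and the change of -1.65 (SE 0.45) missed the threshold at an adjusted p of 0.052.

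Among spindle motors, KIF11, the kinesin that pushes spindle poles apart, read 3183, 1392 and 1381 in siMYC and 4170, 4294 and 5105 in siCtl (log2 change -1.30, SE 0.33, limma adjusted p = 0.0442). KIF14, a kinesin of cytokinesis, had 2002, 550 and 620 in siMYC and 2650, 2779 and 2922 in siCtl. Its change of -1.66 (SE 0.47) was the second largest but missed the threshold at an adjusted p of 0.057. For chromosome structure, MKI67, which coats mitotic chromosomes, read 9117, 5023 and 5516 in siMYC and 12697, 12346 and 14549 in siCtl. These groups did not overlap (-1.06, SE 0.24, limma adjusted p = 0.0324). NCAPG, a condensin subunit, read 2492, 1563 and 1345 in siMYC and 3117, 3326 and 3759 in siCtl (-0.96, SE 0.24, limma adjusted p = 0.0406). TOP2A, the topoisomerase that untangles sister chromatids, stood at a log2 difference of -1.35 (SE 0.37) with an adjusted p of 0.0508, and SMC4, the condensin core, at -1.11 (0.0601). BUB1B, the checkpoint protein BubR1, read 1114, 1029 and 756 in siMYC and 1524, 1596 and 1876 in siCtl (-0.80, SE 0.18, limma adjusted p = 0.0334).

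The cyclins and their kinase, the polo and Aurora kinases, the passenger complex and the anaphase machinery gave no call. CDK1 (-0.42), CCNB1 (-0.32), CCNB2 (-0.49), CCNA2 (-0.41) and the phosphatase gene CDC25C (-0.29) lay in a narrow band. PLK1, which acts at spindle poles and kinetochores, read 2172, 3294 and 1892 in siMYC and 3030, 3051 and 3684 in siCtl, so siMYC 2 stood within the controls while the other siMYC libraries were below them. UBE2C, the ubiquitin-conjugating enzyme of the anaphase complex, read 1997, 2616 and 1688 in siMYC and 2015, 2314 and 2409 in siCtl. PTTG1, or securin, read 1489, 2176 and 1199 in siMYC and 1455, 1634 and 2126 in siCtl. In both genes siMYC 2 was the highest of all 6 libraries, and the changes of -0.12 (95% interval -0.56 to 0.33) and -0.13 (-0.73 to 0.48) were the smallest of the members.

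The length classes differed within this comparison. Of 20 long members 6 fell and their median was -0.96, and of 20 short members 1 fell with a median of -0.40. Over all genes tested the medians were 0.02 for long and 0.08 for short, and 4.99% and 4.58% fell. By library, the long members minus the short members stood at 0.27, -0.91 and -0.23 in siMYC and at 0.26, 0.32 and 0.23 in siCtl (log2, medians of levels relative to the mean of the 6 libraries). The siMYC 1 library lay within the controls on this measure, and siMYC 2 had the lowest value. Across the 40 members the change had a Pearson r of -0.78 with log10 length and 0.64 with GC content, and over 14356 genes -0.06 and 0.33. These are descriptions across genes, which share libraries and are not replicates. With the trends of all genes along GC content and length taken out, 39 of 40 members still lay below 0 with a median of -0.52, and 8 fell, namely CENPF (-1.34), KIF14 (-1.27), ASPM (-1.16), TOP2A (-1.04), MKI67 (-0.95), KIF11 (-0.95), BUB1B (-0.72) and NCAPG (-0.65), beside 5.99% of all genes that fell and 13.9% that rose. The calls rest on few libraries. All 7 lost their call without siCtl 3 (adjusted p 0.103 to 0.134), where 0.331% of all genes fell. No member was called without siCtl 1, siCtl 2 or siMYC 3, beside 0.500% to 0.520% of all genes that fell. Without siMYC 2 all 7 also lost their call, and 2 other members fell, KIF20A (limma adjusted p = 0.0499) and PLK1 (0.0452), beside 3.82%. Without siMYC 1, 18 fell, the 7 among them, beside 12.5%. Interferon-induced genes moved with the groups, with a summed level of 6 genes of 55530 to 111600 in siMYC and 1260 to 4229 in siCtl, as did 3 of 4 listed epithelial genes with 347 to 701 in siMYC and 89.5 to 144 in siCtl, while EPCAM had no row. Summed levels of 2 of 5 luminal genes were 2260 to 2854 in siMYC and 1866 to 1993 in siCtl, of the 8 mesenchymal genes 99750 to 117700 in siMYC and 82830 to 84130 in siCtl, and of 2 of 5 leukocyte genes 199 to 218 in siMYC and 245 to 281 in siCtl, none with overlap. Their part in the result was not tested.

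**Figure D2:**
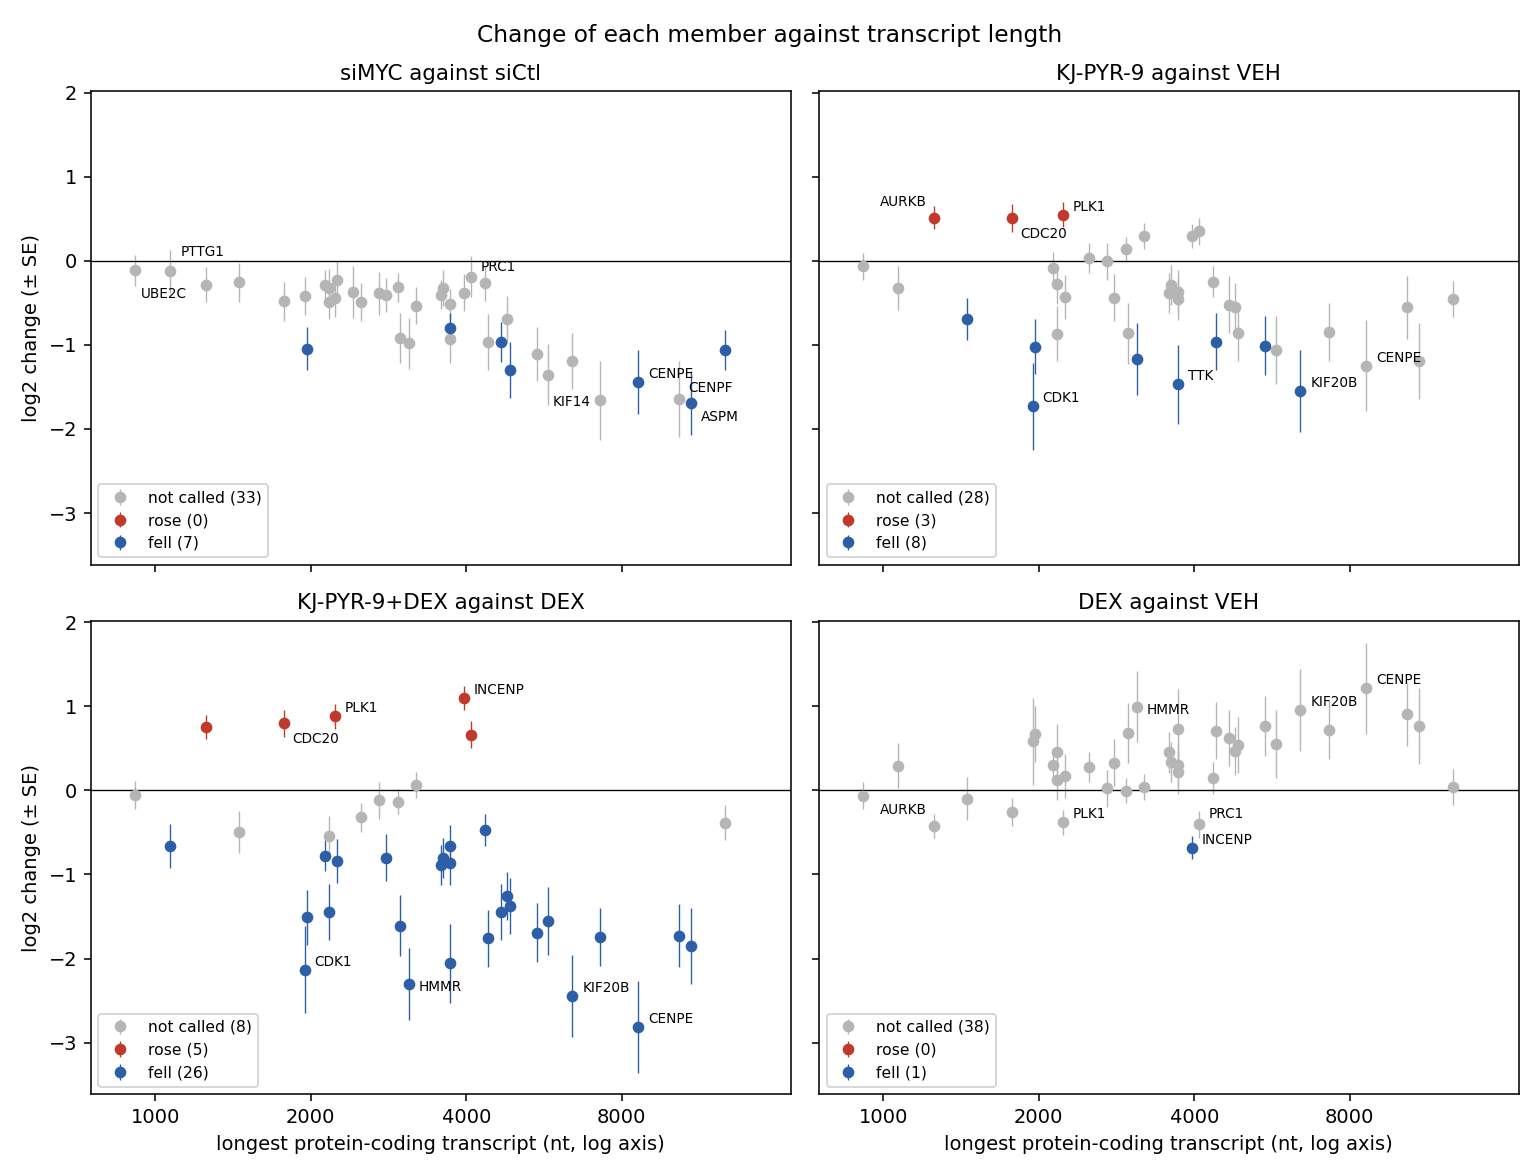
Log2 change of each member (± SE of limma) against the length of its longest protein-coding transcript on a log axis, with colour for the test result. In siMYC the changes run from -0.12 in UBE2C, the shortest member, to -1.69 in ASPM, the second longest, while in KJ-PYR-9+DEX short members lie both at the top and far down.

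The next question was how the members stood 3 h after KJ-PYR-9. The members split in direction: PLK1, AURKB and CDC20 rose by 1.4-fold or more, and 8 fell, led by CDK1, KIF20B and TTK. The 3 that rose are 7.69% of 39, beside 25.4% of all 13616 genes tested, and the 8 that fell are 20.5%, beside 17.5%. In this test, which did not pair libraries, the share that fell was near the background and the share that rose was below it. The median change of the members was -0.45, against 0.06 over all genes, with 31 members below 0 and 8 above. Of all genes called 59.2% were higher in KJ-PYR-9, and 47.6% with quantile scaling, where 35 members lay below 0 and 4 above. Same-numbered libraries of this experiment deviated together. With the replicate number as a block 6 members rose (15.4%) and 24 fell (61.5%), beside 32.2% and 25.8% of all genes. The share that fell was then above that of all genes. Within the same-numbered libraries 28 members were lower in KJ-PYR-9 than in VEH in all 3 and 7 were higher in all 3, beside 36.4% and 42.5% of all genes. Every KJ-PYR-9 library was below every VEH library in 14 members and above in 6, beside 29.2% and 35.4% of all genes.

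CDK1 read 270, 345 and 185 in KJ-PYR-9 and 943, 1093 and 614 in VEH. The groups did not overlap, and the log2 change was -1.73 (SE 0.52, limma adjusted p = 0.0214). Its cyclin partners changed less: CCNB1 had 2915, 3005 and 2233 in KJ-PYR-9 and 3179, 3819 and 2871 in VEH, an overlap (-0.28, SE 0.24, limma adjusted p = 0.351), and CCNB2 stood at 0.03 (SE 0.18). CCNA2 stood at -0.44, did not pass the main test and fell with the block (limma adjusted p = 0.00538). KIF20B, a kinesin of the midzone, read 311, 318 and 188 in KJ-PYR-9 and 1027, 969 and 474 in VEH (-1.55, SE 0.49, limma adjusted p = 0.0258). TTK, the checkpoint kinase MPS1, read 270, 294 and 167 in KJ-PYR-9 and 785, 832 and 435 in VEH (-1.47, SE 0.47, limma adjusted p = 0.0276). In both genes replicate 3 was the lowest library in each group, and the groups did not overlap. The other members that fell were NUF2 (-1.02, adjusted p = 0.0282), SMC4 (-1.01, 0.0394), ECT2, which starts the cleavage furrow (-0.96, 0.0416), HMMR (-1.17, 0.0462) and CENPA (-0.69, 0.0463). CENPE (-1.25, 0.0837) and ASPM (-1.19, 0.0518) missed the threshold and fell with the block (adjusted p = 0.00214 and 0.000897).

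PLK1 (GRCh38 chromosome 16, 23678889 to 23690367) read 2742, 3186 and 2983 in KJ-PYR-9 and 1869, 2418 and 1846 in VEH. All KJ-PYR-9 values were higher (log2 change 0.55, SE 0.15, limma adjusted p = 0.0142). AURKB, the kinase of the chromosomal passenger complex, read 1348, 1441 and 1435 in KJ-PYR-9 and 925, 1165 and 886 in VEH (0.51, SE 0.14, limma adjusted p = 0.0149). CDC20 read 3733, 4081 and 3536 in KJ-PYR-9 and 2534, 3319 and 2240 in VEH (0.51, SE 0.17, limma adjusted p = 0.0312). The passenger partners INCENP (0.30, adjusted p = 0.109) and BIRC5, or survivin (-0.01, 0.985), did not pass, and INCENP rose with the block (0.0387). With quantile scaling the changes of AURKB, PLK1 and CDC20 were 0.29, 0.19 and 0.10 and none passed (limma adjusted p = 0.105, 0.282 and 0.66), and PRC1 rose (0.41, 0.0396).

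The change had a Pearson r of -0.38 with log10 length across 39 members and -0.21 across 13274 genes. Long members had a median of -0.55 with 4 of 20 falling, and short members -0.28 with 4 of 19 falling and 3 rising, while all genes tested had -0.10 for long and 0.24 for short. Of all long genes 22.8% fell and 18% rose, and of all short genes 12.3% fell and 32.9% rose. By base composition, all 20 GC-poor members lay below 0 with a median of -0.91, beside -0.58 over all GC-poor genes, of which 46.6% fell. The 19 GC-rich members had a median of -0.07, beside 0.28 over all GC-rich genes, of which 33.9% rose. Across 39 members the change had a Pearson r of 0.88 with GC content, and 0.66 across 13274 genes. In a fit with the GC content and length trends taken out, which did not use the block, the member median was -0.14. There 25 members lay below 0 and 14 above. No member was called, beside 7.97% of all genes that fell and 16.3% that rose. The smallest adjusted p was 0.0529 (CENPA). The calls of the main test, which did not pair libraries, also rested on few libraries. Leaving out libraries was not combined with the block. No member fell without VEH 1, VEH 2 or KJ-PYR-9 3, beside 8.47% to 10.2% of all genes, 4 fell without KJ-PYR-9 1 or KJ-PYR-9 2, beside 12.6% in both, and 15 fell without VEH 3, beside 15.4%. No member rose without VEH 1, beside 16.9% of all genes, 1 rose without KJ-PYR-9 2 or KJ-PYR-9 3, beside 19.5% and 16.5%, and 2 without KJ-PYR-9 1 or VEH 3, beside 21.2% and 24.5%. In every group of the inhibitor experiment replicate 3 had the lowest member median, at -0.57 in KJ-PYR-9, -0.94 in KJ-PYR-9+DEX, 0.10 in DEX and -0.19 in VEH (log2, relative to the mean of the experiment). Of 5 leukocyte markers CORO1A and PTPRC had rows, and they summed to 219 to 266 in KJ-PYR-9 and 99.2 to 121 in VEH, with PTPRC at most 18.3 and CD3E and ITGAM without a row. The 4 of 5 luminal genes with rows summed to 1497 to 1736 in KJ-PYR-9 and 1104 to 1304 in VEH, with FOXA1 at most 5.47 and PGR at most 20.9, and the 8 mesenchymal genes, of which 5 rose, to 64410 to 70480 in KJ-PYR-9 and 47030 to 50570 in VEH. Epithelial and interferon sums overlapped. The part of these markers in the result was not tested.

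**Figure D3:**
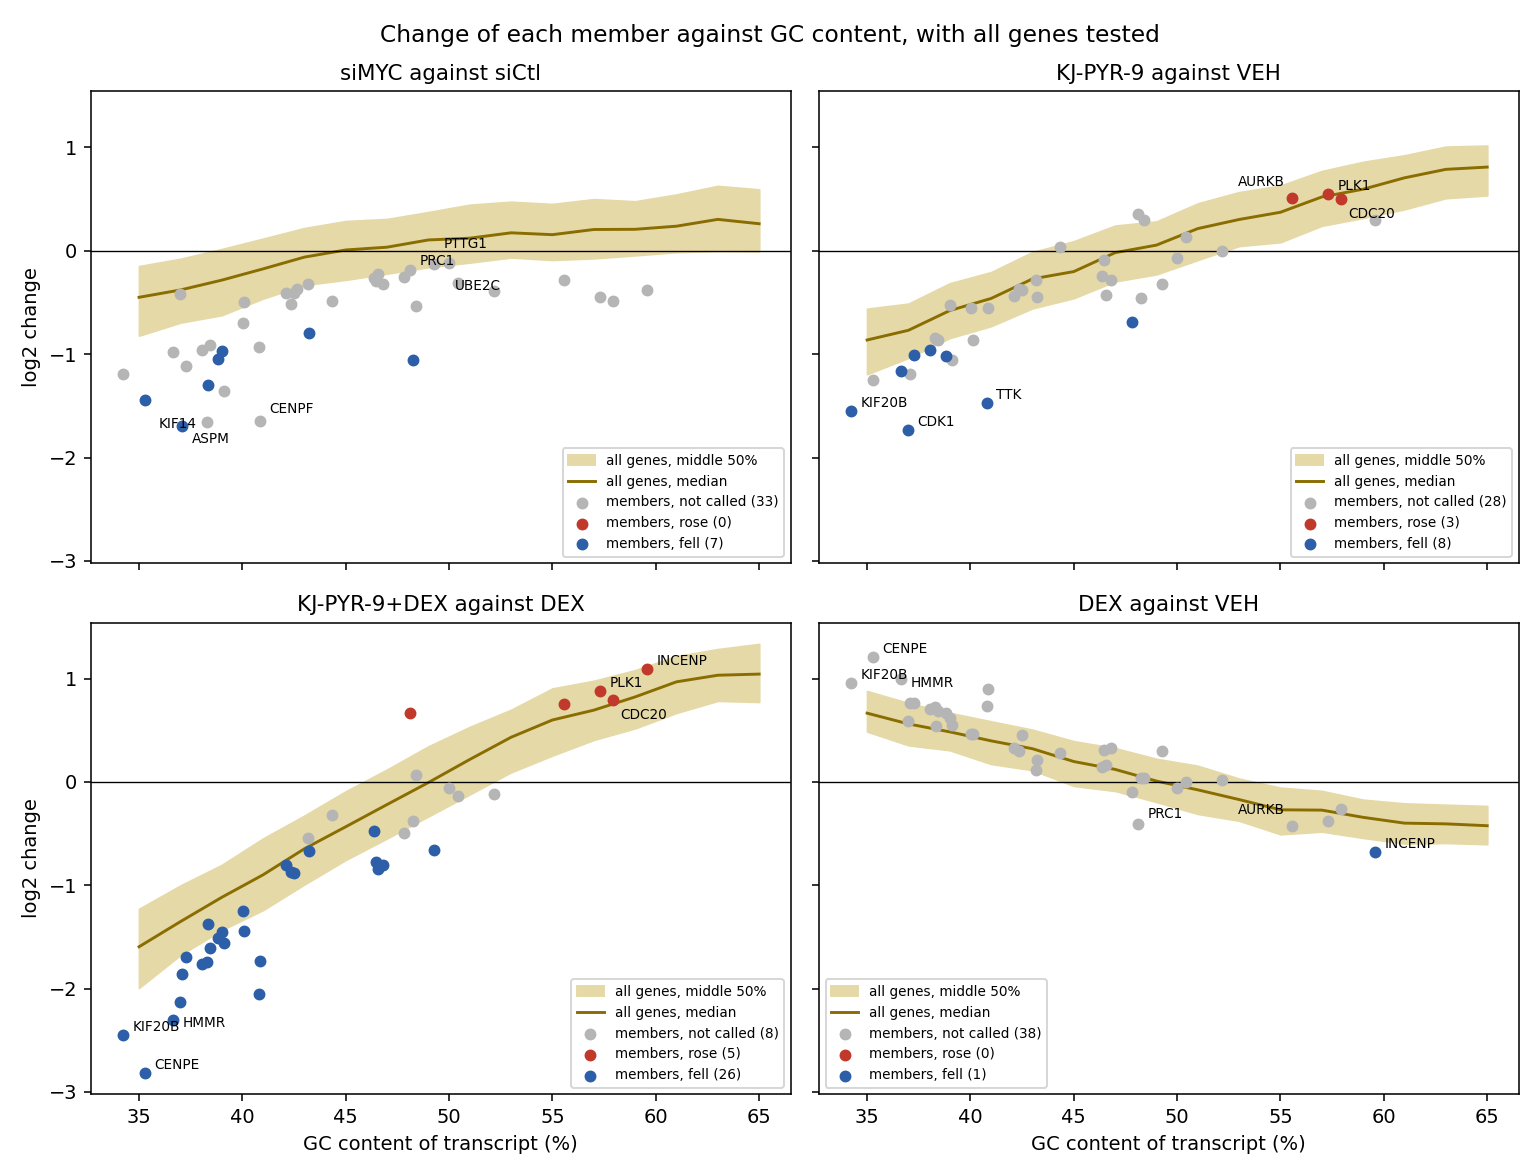
Log2 change of each member against the GC content of its transcript, over the median (line) and middle 50% (band) of all genes tested in bins of GC content. In KJ-PYR-9+DEX against DEX the members run from CENPE at -2.82 to INCENP at 1.09, in the direction of the slope of all genes. Their medians there are lower than those of all genes, at -1.65 beside -1.105 for GC-poor and -0.32 beside 0.38 for GC-rich. In siMYC most members lie below the band.

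With DEX alone the number of members called depended on the fit. The main test, which did not pair libraries, called 1, while with the replicate number as a block 19 rose and 4 fell. INCENP, the scaffold of the chromosomal passenger complex (GRCh38 chromosome 11, 62124011 to 62153169), read 1053, 1431 and 1270 in DEX and 1949, 2230 and 1810 in VEH. The log2 change was -0.68 (SE 0.14, limma adjusted p = 0.0112) with no overlap between the groups. INCENP was the only member called by the main test, beside 8.02% of all genes that fell and 9.50% that rose. It kept its call with each library left out in turn (adjusted p 0.0148 to 0.0472) and lost it with the GC content and length trends taken out (-0.30, adjusted p = 0.318), where no member passed, beside 5.48% of all genes that rose and 4.16% that fell. These fits did not use the block. At an unadjusted limma p under 0.05, 3 members were higher and 4 lower, beside 20.2% and 17.6% of all genes. All DEX libraries were above all VEH libraries in 2 members and below in 3, beside 23.6% and 20.1% of all genes. The member median was 0.33, against 0.02 over all genes, with 31 members above 0 and 8 below. Of all genes called 54.2% were higher in DEX, and 40.1% with quantile scaling, where 27 members lay above 0 and 12 below. The highest changes were those of CENPE (1.21, SE 0.54, adjusted p = 0.128), HMMR (0.997, SE 0.43, 0.115) and KIF20B (0.95, SE 0.49, 0.168). CENPE read 2340, 1701 and 1123 in DEX and 976, 950 and 386 in VEH, without overlap, and replicate 3 was the lowest in both groups. HMMR rose without DEX 3 (1.33, adjusted p = 0.0484), where 14.6% of all genes rose. With the replicate number as a block 19 members rose (48.7%) and 4 fell (10.3%), beside 23.9% and 19.6% of all genes. The 19 held 14 of 20 long and 18 of 20 GC-poor members, and among them were CENPE (adjusted p = 0.00577), CENPF (0.90, 0.00349), KIF14 (0.72, 0.00237) and NUF2 (0.67, 0.00185). The 4 that fell with the block were INCENP (0.0027), AURKB (-0.43, 0.0113), PLK1 (-0.38, 0.0176) and PRC1 (-0.40, 0.0252). GC-poor members had a median of 0.68 and GC-rich members 0.04, beside 0.48 and -0.15 over all genes. With the block 57.2% of all GC-poor genes and 31.7% of all long genes rose. Luminal markers summed to 790 to 907 in DEX and 1104 to 1304 in VEH, and the 8 mesenchymal markers, of which 5 rose, to 58120 to 71460 in DEX and 47030 to 50570 in VEH, and their part in the result was not tested.

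KJ-PYR-9 in the presence of DEX gave the largest member changes. Of 39 members 26 fell and 5 rose, 66.7% and 12.8%, beside 35.1% and 33.6% of all genes. The motor CENPE was 7.0-fold lower, and INCENP was 2.1-fold higher. The median was -0.84, against 0.00 over all genes. With the block 30 members fell (76.9%) and 5 rose (12.8%), beside 38.2% and 37.1% of all genes. Every KJ-PYR-9+DEX library was below every DEX library in 22 members and above in 5, beside 35.2% and 33.8% of all genes. Leukocyte markers summed to 183 to 277 in KJ-PYR-9+DEX and 79.3 to 109 in DEX, and luminal markers to 1443 to 1999 in KJ-PYR-9+DEX and 790 to 907 in DEX. Neither overlapped, and CORO1A (1.48, adjusted p = 0.000252), ERBB2 (1.08, 0.000313) and GATA3 (0.66, 0.0192) rose. The epithelial, interferon and mesenchymal sums overlapped, with KRT8 higher (1.35, 0.00577) and 2 mesenchymal genes higher and 4 lower. The part of these markers in the result was not tested. This comparison and the one before share the DEX libraries, and the 2 comparisons with VEH share the VEH libraries, so their changes are not independent.

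CENPE read 427, 313 and 94.3 in KJ-PYR-9+DEX and 2340, 1701 and 1123 in DEX. The highest KJ-PYR-9+DEX library was below the lowest DEX library, and the log2 change was -2.82 (SE 0.54, limma adjusted p = 0.00109). HMMR read 203, 288 and 96.3 in KJ-PYR-9+DEX and 1226, 1007 and 550 in DEX (-2.30, SE 0.43, limma adjusted p = 0.000869). KIF20B read 461, 372 and 122 in KJ-PYR-9+DEX and 2053, 1652 and 1015 in DEX (-2.45, SE 0.49, limma adjusted p = 0.00128). For these 3 genes KJ-PYR-9+DEX 3 was the lowest of the 6 libraries. Of 5 kinetochore genes 4 fell, CENPE, CENPF (-1.73, adjusted p = 0.00204), NUF2 (-1.51, 0.00211) and NDC80 (-1.45, 0.00266), all GC-poor, a class in which 85.4% of all genes fell, while the GC-rich CENPA (-0.50, 0.1) did not pass. All 3 checkpoint genes fell, TTK by 2.06, BUB1 by 0.89 and BUB1B by 0.665 on the log2 scale. TTK and BUB1 are GC-poor and BUB1B is GC-rich.

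ASPM had 1890, 1609 and 601 in KJ-PYR-9+DEX and 5403, 5141 and 3122 in DEX (-1.85, SE 0.45, limma adjusted p = 0.00389). The groups did not overlap. All 4 tested spindle assembly factors fell, the others being HMMR, DLGAP5 (-1.61) and TPX2 (-0.81). Of 5 spindle motors 4 fell, KIF20B, KIF14 (-1.74), KIF11 (-1.37) and KIF4A (-0.47), and KIF2C, a microtubule depolymerase, stood at -0.13 (adjusted p = 0.444). Apart from TPX2 and KIF4A, the members of these roles that fell are GC-poor, a class in which 85.4% of all genes fell. TPX2, KIF4A and KIF2C are GC-rich, a class in which 17.9% of all genes fell. TOP2A (-1.55), NCAPG (-1.45) and SMC4 (-1.69), all GC-poor, fell. MKI67, the longest member but GC-rich at 48.3%, stood at -0.38 with an adjusted p of 0.125. In cytokinesis ECT2 (-1.76), ANLN, an actin-binding furrow protein (-1.25), and KIF23 (-0.87), all GC-poor, fell. The GC-rich KIF20A (0.06) did not pass, and the GC-rich PRC1, which bundles midzone microtubules, rose by 0.66.

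CDK1 read 429, 532 and 110 in KJ-PYR-9+DEX and 1687, 1454 and 873 in DEX (-2.13, SE 0.52, limma adjusted p = 0.00386). No library overlapped. CCNA2 (-0.80) and CDC25C (-0.78) fell, and CCNB1 (-0.54, adjusted p = 0.0623) and CCNB2 (-0.32, 0.125) missed the threshold, with the block at 0.0029 and 0.0202. AURKA, the spindle pole kinase, read 1057, 1289 and 664 in KJ-PYR-9+DEX and 1858, 1991 and 1399 in DEX (-0.84, SE 0.26, limma adjusted p = 0.0146). PTTG1 fell by 0.66, and UBE2C stood at -0.06 (adjusted p = 0.776). Without KJ-PYR-9+DEX 3 the calls of AURKA (adjusted p = 0.0575), CCNA2 (0.0996), BUB1B (0.151), PTTG1 (0.179) and KIF4A (0.161) were lost, 21 members fell, beside 31.9% of all genes, and the median was -0.58. The same 5 calls were lost without DEX 2 (AURKA 0.0536, CCNA2 0.0777, BUB1B 0.118, PTTG1 0.115, KIF4A 0.104), all but that of AURKA without DEX 1, and those of PTTG1 (0.051) and KIF4A (0.0863) without KJ-PYR-9+DEX 1. CENPA fell without KJ-PYR-9+DEX 1 (0.0416) and CCNB1 without DEX 3 (0.0327).

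INCENP read 2517, 2890 and 2561 in KJ-PYR-9+DEX and 1053, 1431 and 1270 in DEX. Its lowest KJ-PYR-9+DEX value was above the highest DEX value (log2 change 1.09, SE 0.14, limma adjusted p = 0.000174). PLK1 read 2549, 2981 and 3148 in KJ-PYR-9+DEX and 1409, 1734 and 1559 in DEX (0.88, SE 0.15, limma adjusted p = 0.000527). AURKB read 1077, 1365 and 1281 in KJ-PYR-9+DEX and 680, 779 and 742 in DEX (0.75, SE 0.14, limma adjusted p = 0.000919). CDC20 read 3440, 4474 and 3714 in KJ-PYR-9+DEX and 2038, 2475 and 2168 in DEX (0.80, SE 0.17, limma adjusted p = 0.00169). PRC1 was the other member that rose (adjusted p = 0.0037). All 5 kept their calls with each library left out in turn. INCENP, CDC20, PLK1 and AURKB are the 4 members with the highest GC content, at 59.6%, 57.9%, 57.3% and 55.6%.

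Long members had a median of -1.41 with 17 of 20 falling and 2 rising, and short members -0.54 with 9 of 19 falling and 3 rising, beside -0.28 and 0.23 over all long and short genes. Of all long genes 45% fell and 28.1% rose, and of all short genes 26.1% fell and 39% rose. The 14 long GC-poor members had a median of -1.71 and the 6 short ones -1.56, and all 20 fell, beside a median of -1.10 over all GC-poor genes, of which 85.4% fell. The 6 long GC-rich members had a median of -0.43 and the 13 short ones -0.13, beside 0.31 and 0.43 over all long and short GC-rich genes. In the knockdown the same split gave -1.15 for long and -0.71 for short GC-poor members, and -0.35 and -0.32 for long and short GC-rich members. The change had a Pearson r of 0.94 with GC content across 39 members and 0.77 across 13274 genes. With the GC content and length trends taken out, in a fit without the block, the member median was -0.38 with 31 of 39 below 0. Then 8 members fell, namely CENPE (-1.40, adjusted p = 0.0159), TTK (-1.17, 0.0304), CENPF (-0.98, 0.0246), HMMR (-0.91, 0.028), KIF20B (-0.88, 0.0409), KIF14 (-0.66, 0.0493), TPX2 (-0.59, 0.0489) and CDC25C (-0.46, 0.0276), and PRC1 alone rose (0.72, 0.00435), beside 16.8% of all genes that fell and 15.1% that rose. The long minus short difference was -0.87 as deposited and -0.17 with the trends taken out. In the knockdown it was -0.57 and -0.36.

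**Figure D4:**
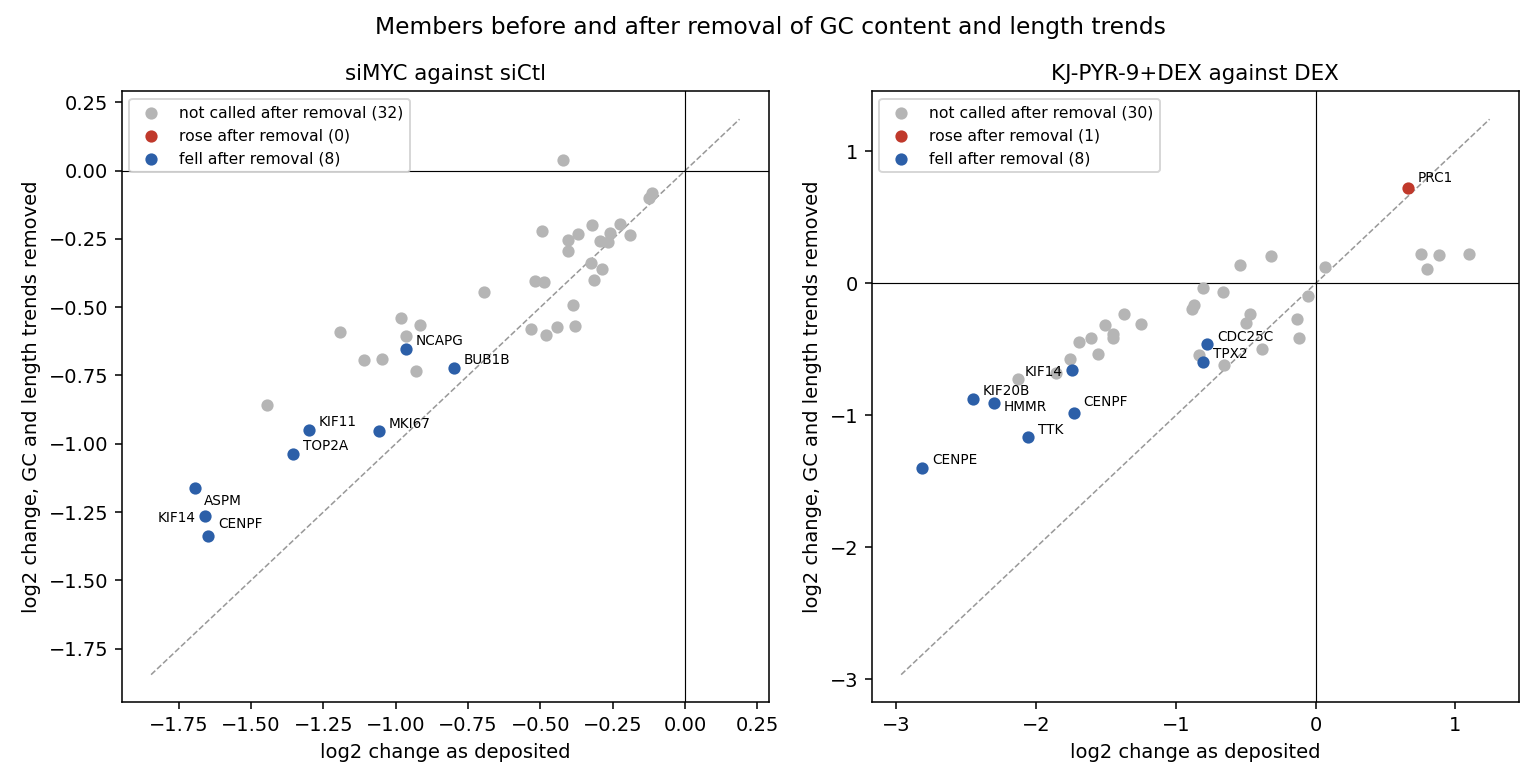
Log2 change of each member with the GC content and length trends of all genes taken out (vertical) against the change in the deposited values (horizontal), with the line of equality dashed and colour for the test on that axis. In siMYC 39 of 40 members stay below 0, and in KJ-PYR-9+DEX against DEX the rises of INCENP, PLK1, CDC20 and AURKB shrink to values that did not pass while PRC1 stays at 0.72.

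The interaction asked whether the KJ-PYR-9 change in DEX differed from that in VEH. INCENP was the only member called, with a difference of 0.80 (SE 0.20, limma adjusted p = 0.0205), beside 7.15% of all genes called higher and 9.62% lower. The call was lost without VEH 2 (adjusted p = 0.0538), without KJ-PYR-9 3 (0.0507) and with the GC content and length trends taken out (0.48, 0.212), beside 7.68% of all genes higher and 11.1% lower in that fit. The largest negative differences were those of CENPE (-1.57, SE 0.77, adjusted p = 0.191), CENPF (-1.175, SE 0.53, 0.155) and HMMR (-1.13, SE 0.60, 0.226), none of which passed. The member median was -0.49, against -0.11 over all genes, and with quantile scaling -0.25 against 0.04. Of all genes called 42.6% were higher, 53.3% with TMM and 58.5% with quantile scaling. With the block INCENP was higher (0.00512), beside 12.4% of all genes, and 15 members (38.5%) were lower, beside 20.0% of all genes. They were led by KIF14 (-0.90, adjusted p = 0.00357), CENPF (0.00464) and CENPE (0.00867). Of these 15, 11 were long and 4 short, beside 24% of all long and 16.3% of all short genes that were lower. By base composition, 13 of 20 GC-poor members were lower, beside 38.4% of all GC-poor genes. Of 19 GC-rich members 2 were lower, beside 13.6% of all GC-rich genes.

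**Figure D5:**
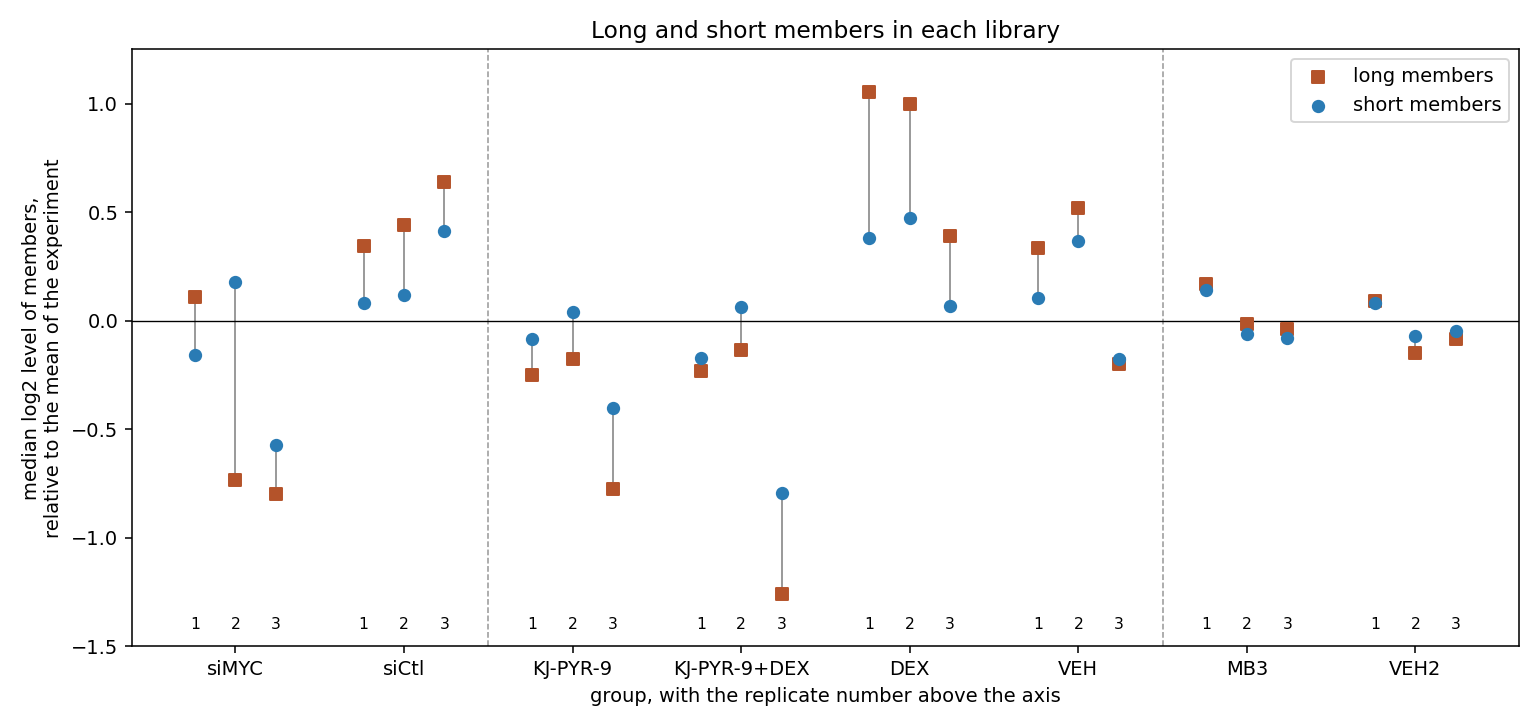
Median log2 level of the 20 long (squares) and the short (circles) members in each library, relative to the mean of all libraries of the same experiment, with replicate numbers above the axis. Long members lie below short ones in all KJ-PYR-9 and KJ-PYR-9+DEX libraries and above them in all DEX libraries, and in the knockdown siMYC 2 has the widest gap at -0.91.

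MB-3 gave no change in these genes that passed the test. None of 39 members rose or fell, beside 0.0299% of 10048 genes in each direction, and the changes ran from -0.21 in CENPA to 0.18 in KIF14, with a median of 0.07. With the block none passed either, beside 0.0597% of all genes higher and 0.0796% lower. At an unadjusted limma p under 0.05 there were 2 members, PLK1, lower, and BUB1B, higher, beside 8.06% of all genes lower and 5.64% higher. PLK1 read 1620, 1592 and 1577 in MB3 and 1869, 1806 and 1700 in VEH2 (-0.16, SE 0.07, adjusted p = 0.359). BUB1B read 1032, 955 and 934 in MB3 and 882, 835 and 865 in VEH2 (0.18, SE 0.07, adjusted p = 0.349). Neither gene's groups overlapped, as for 11.5% of all genes above and 11.6% below. The 95% intervals of the 39 members lay within -0.50 and 0.49. Long members had a median of 0.08 and short members 0.01, beside 0.04 and -0.02 over all genes.

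A further list of 62 mitotic genes, none of them members, was taken alongside. In siMYC 2 fell and none rose, KIF15, a spindle kinesin (-1.19, SE 0.29, limma adjusted p = 0.0399), and ARHGAP11A (-0.997, SE 0.23, 0.0326), and the list median was -0.28. The 2 are 3.23% of the list, beside 4.78% of all genes. In KJ-PYR-9 7 rose and 12 fell, 11.3% and 19.4%, beside 25.4% and 17.5% of all genes. The rises were led by FZR1, the other activator of the anaphase promoting complex (0.99, SE 0.19, 0.00343), PKMYT1, a CDK1-inhibiting kinase (0.86, 0.00474), and KIF18B (0.55, 0.0146). The falls were led by the kinetochore genes SKA2 (-1.60, 0.0114) and CENPK (-1.43, 0.0128) and the kinase PBK (-1.36, 0.0335). In KJ-PYR-9+DEX 14 rose and 33 fell, 22.6% and 53.2%, beside 33.6% and 35.1% of all genes, with FZR1 (1.60, 0.000124), PKMYT1 (1.14, 0.000385) and MAD1L1 (1.05, 0.00391) at the top and SGO2 (-2.92, 0.00192) and SGO1 (-2.32, 0.000526), which both guard centromeric cohesion, at the bottom. In DEX 4 rose and 5 fell, 6.45% and 8.06%, beside 9.50% and 8.02% of all genes, led by WEE1, the CDK1-inhibiting kinase (1.67, SE 0.20, 0.00057), and MAD1L1 (-0.87, 0.0401). With MB-3 none of 60 was called, and the interaction gave 2 higher and 6 lower, 3.23% and 9.68%, beside 7.15% and 9.62% of all genes, with WEE1 lowest (-1.72, 0.00255).

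Of 22 regulators of this programme, among them the MuvB subunits, E2F factors, retinoblastoma proteins and NF-Y, only CDKN1A, the CDK inhibitor p21, was called in siMYC, where it rose by 1.90 (SE 0.29, limma adjusted p = 0.014), 4.55% of the list beside 11.4% of all genes. In KJ-PYR-9 6 rose and 3 fell, 27.3% and 13.6%, near the 25.4% and 17.5% of all genes, led by MYC (2.49, SE 0.21, 6.38e-05), CDKN1A (1.81, 0.00142) and MYBL2, which encodes B-Myb (0.87, 0.00202), while RB1 (-0.74, 0.029), NFYB (-0.63, 0.0209) and E2F8 (-0.63, 0.0208) fell. In DEX 4 rose and 1 fell, 18.2% and 4.55%, beside 9.50% and 8.02% of all genes, with MYC at 3.40 (SE 0.21, 4.07e-06), CDKN1A at 1.06 (0.0251) and LIN54, the MuvB subunit that binds the CHR, at 0.82 (0.0145), and with E2F2 lower (-0.42, 0.0421). In KJ-PYR-9+DEX 6 rose and 12 fell, 27.3% and 54.5%, beside 33.6% and 35.1% of all genes. E2F1 (0.96, 0.00046), MYBL2 (0.74, 0.00108) and E2F4 (0.72, 0.0026) were highest, and LIN9 (-2.20, 0.00146), MYC (-2.15, 5.71e-05) and LIN54 (-1.41, 0.000178) lowest. The interaction called 3 lower (13.6%, beside 9.62% of all genes), MYC, CDKN1A and LIN54, and MB-3 called none of 21.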

How the data were processed

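RNA sequencing of 24 BT549 libraries was analysed from the signal that the authors deposited, 1 file per library of read counts divided by a library factor. Tools given in the submitters' processing notes are featureCounts, DESeq2, SAMtools and bcl2fastq, with GRCh38 as the build. Aligner, annotation and versions are not given in the sources used here. Features without a symbol were dropped and repeated symbols summed. The main test was limma (version 3.58.1, R 4.3.3) on log2(value + 1), for genes whose mean reached 10 over the libraries fitted. It was two-sided, and p-values were adjusted by Benjamini-Hochberg over every gene tested, with a threshold of 0.05. The 12 inhibitor libraries shared 1 fit. The 3 tables were normalized separately, so no test ran across them and values of different tables set side by side are not on 1 scale. Values divided by the recovered library factor were whole within 0.0001, but the factor is less certain for siMYC 1, where it lies near 1 (0.991), and for the MB-3 libraries, which list no low values, and so are their read totals. With that doubt for siMYC 1, edgeR 4.0.16 and DESeq2 1.42.0 were run on these reads as alternatives for the knockdown and inhibitor tables. Other alternatives were a pseudocount of 5, other filters, TMM and quantile scaling, loess removal of GC content and length trends (span 0.3), a replicate block and leaving out each library. Only the block fit used the replicate number, so the fits with trends removed or a library left out did not pair libraries. The main limma fit was tested on simulated data for siMYC against siCtl, KJ-PYR-9 against VEH and MB3 against VEH2. The simulated libraries were drawn independently, without a shared replicate shift or a GC content trend. The other fits were not tested in this way.

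Residuals of same-numbered libraries correlated at -0.35 to -0.02 in the 3 pairs of the knockdown, where numbers were not taken to pair, at 0.13 to 0.52 in all 18 pairs of the inhibitor experiment and at 0.21 to 0.39 in the 3 pairs of the MB-3 experiment, where they were. The pairing rests on these correlations, each over 0.1, and not on a statement in the labels. Pairs with different numbers in the inhibitor experiment ran from -0.468 to 0.236. DEX 1 and KJ-PYR-9 1 correlated with KJ-PYR-9+DEX 2 at 0.236 and 0.235, and with KJ-PYR-9+DEX 1 at 0.211 and 0.184. The pairing of replicate 1 is therefore less certain. In the knockdown siCtl 3 and siMYC 2 stood at 0.346. The members, lists and tests were chosen with earlier results of these data known. All 40 members could be named. Per-library values were given for the members with the smallest adjusted p and for those with the largest changes in each comparison, and for 15 members chosen in advance by role where they passed or stood at an end. Other members given in full were chosen after their values were seen. The title of library MB3 1 names another treatment than its treatment field, and the field was used. Fold changes on the log2(value + 1) scale understate changes of low genes. Intervals and tests cover the spread between libraries. Promoters and their coordinates are from RefSeq on GRCh38.p14.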

Additional observations from a re-analysis of the deposited data

Results flagged for a closer look

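INCENP changed by more with KJ-PYR-9 in DEX than in VEH, with a difference between the log2 changes of 0.798 (SE 0.20, limma adjusted p = 0.0205), tested as the interaction in the fit of 12 libraries. In that fit 7.15% of all genes were called higher. The call of INCENP, the member with the highest GC content, was lost without VEH 2 (limma adjusted p = 0.0538) and without KJ-PYR-9 3 (0.0507). It was also lost with the GC content and length trends taken out (0.479, limma adjusted p = 0.212). The change was 1.09 in KJ-PYR-9+DEX against DEX and 0.30 in KJ-PYR-9 against VEH, and INCENP was 0.68 lower in DEX than in VEH on the log2 scale. Its levels averaged 2656 ± 204 in KJ-PYR-9+DEX, 2443 ± 111 in KJ-PYR-9, 1251 ± 190 in DEX and 1997 ± 214 in VEH (SD, n = 3 each).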

How the results depend on the processing

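In the knockdown 11 members fell with a pseudocount of 5 (5.63% of all genes), 14 with a minimum mean of 50 (7.75%), 12 with quantile scaling (7.37%), 18 with DESeq2 (11.9%) and 0 with the replicate block, where 0.453% of all genes fell, compared with 7 by the main test. The numbers were not taken to pair in the knockdown. With libraries left out 0 to 18 fell (0.331% to 12.5% of all genes), the median was -0.674 to -0.307 and long minus short -0.914 to -0.309. In KJ-PYR-9 against VEH 4 fell without a filter (12.3% of all genes), 19 with quantile scaling (22.9%), 18 with edgeR (26.8%), 17 with DESeq2 (3546 of 13616 genes), 0 with trends removed and 24 with the block, and 1, 0 and 6 rose with quantile scaling, trends removed and the block. The median was -0.143 with trends removed, and long minus short was -0.520 with quantile scaling and -0.019 with trends removed. With libraries left out 0 to 15 fell, 0 to 3 rose, the median was -0.644 to -0.293 and long minus short -0.463 to -0.190. In DEX against VEH 2 rose with DESeq2 (2047 of 13616 genes) and 19 with the block, and 2 fell with a minimum mean of 50 (9.21%) or TMM (9.33%), 4 with quantile scaling (13.6%), 3 with edgeR (9.89%) or DESeq2 (12.4%), 0 with trends removed and 4 with the block. Long minus short was 0.126 with trends removed, and with libraries left out 0 to 1 rose, 1 fell, the median was 0.224 to 0.519 and long minus short 0.275 to 0.462. In KJ-PYR-9+DEX against DEX trends removed gave 1 rise, 8 falls, a median of -0.381 and long minus short of -0.166. With libraries left out 5 rose, 21 to 28 fell, the median was -1.044 to -0.582 and long minus short -0.928 to -0.740. The interaction gave 0 rises with trends removed and 15 falls with the block. With libraries left out 0 to 1 rose, 0 fell, the median was -0.688 to -0.149 and long minus short -0.456 to -0.138. In MB3 against VEH2 long minus short was 0.022 with trends removed, and the median -0.016 to 0.114 and long minus short 0.051 to 0.089 with libraries left out. The cause of these shifts was not tested. No single member's call changed sign. Of 600 single-member values under alternatives in the knockdown 46 lost and 46 gained a call, of 585 in KJ-PYR-9 against VEH 61 and 70, and of 585 with DEX present 42 and 11. The planned edgeR and DESeq2 tests were not run for MB-3, whose lowest gene mean of 83.9 leaves its filters without effect. The shallow libraries DEX 1, KJ-PYR-9+DEX 1 and VEH 3, with 5.58 M to 7.85 M reads, limit precision.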
